A study of Mus musculus with 2 samples.

Results

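The Bcl2 family sets the threshold at which mitochondria release cytochrome c and start apoptosis. Its anti-apoptotic members (Bcl2, Bcl2l1, Bcl2l2 and Mcl1) hold the pore-forming members Bax and Bak1 in check, and the BH3-only members (Bid, Bcl2l11, Bbc3 and Pmaip1) relieve that block or activate the pore formers directly. Stress of the endoplasmic reticulum is known to reach the family through the transcription factors Atf4 and Ddit3 (CHOP), which act on genes such as Bcl2l11 and Bbc3. Mcl1 protein is short-lived, so its amount follows its synthesis closely. The 10 genes named here were taken as the family, and their probes were those whose gene name on the array equalled one of the symbols, out of 28080 gene names in all. They had 17 probes, of which 15, for 9 of the 10 genes, were detected. A probe counted as detected where A, its log2 signal averaged over the dyes, was above 4.5 on both arrays.

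The cells were NIH3T3, an established line of mouse fibroblasts, grown in medium with 10% serum and either left untreated (control) or exposed to 10 µM thapsigargin for 3 h (stress). Thapsigargin blocks the calcium pump of the endoplasmic reticulum and so causes its proteins to misfold, which leads to phosphorylation of eIF2α and a general block of initiation. Lysates were run on 10 to 40% sucrose gradients, and RNA bound to polysomes (P, Cy3) was hybridised against free plus monosomal RNA (FM, Cy5). Each condition had 1 array, made from RNA pooled from 3 preparations, so the conditions were compared without replicates and without p-values. Translation was measured as log2 P/FM, from P signal over FM signal with no normalization, and its change is stress minus control.

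In control, 42.5% of transcript spots (P) and 46.3% (FM) stood well above background, and 44.6% and 45.4% did under stress. The mean P signal was 631 in control and 463 in stressed cells, and the mean FM signal was 940 and 1386. The 17173 detected probes had a median of 0.22 in control cells and of -0.29 under stress, and their median change was -0.61. A was higher by 0.37 in the median, with 0.07 in P and 0.67 in FM. The 10 added spike-in RNAs had a median log2 P/FM of -0.40 on the control and -2.95 on the stress array. Subtracting these medians (the spike-in scaling) turned the median change of all probes to 1.94. The authors report more RNA in P than in FM in control cells, and more in FM under stress. They kept these proportions for labelling, so P and FM RNA were not labelled in equal amounts. Whether the spike-in values carry this split, and the scaling takes it out, was not tested. All 10 fibroblast markers listed (collagens, vimentin and the like) were detected, against 0 of 4 epithelial and 0 of 2 endothelial markers and 1 of 3 leukocyte markers, Cd3e.

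Errors after ± are those of the scanner software's error model on the log2 scale, unless given as an SD over the 9 usable spots of a probe printed as 10 spots. The median error of a ratio over all probes was 0.23 in each condition. Between probes of 1 accession the SD of the change was 0.32 for log2 P/FM and 0.18 for A, over 3438 accessions. None of these errors covers the spread between cell preparations.

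The probes that carry the findings are shown first, because genes with more than 1 probe did not always give 1 answer. Positions are those of the deposited files on mm9, and exon and UTR annotation of that build was not used here. A pair of probes for Bcl2l11 and a pair for Bcl2 gave different changes, the Mcl1 probes were higher alike, and the Bax probe had the lowest change of the family, which the spike-in scaling turned above 0. The Bcl2l11 probe (1) at chr2:127972893-127983988 and the Bax probe at chr7:52721469-52721624 cover more genome than their 60 bases, so each joins separate exons. All 60 bases are given for these and for Bcl2 probe (1), and the first 30 for the others, 5′ to 3′ in the sense of the mRNA.
Bcl2l11 probe (1), chr2:127972893-127983988, plus strand, all 60 bases: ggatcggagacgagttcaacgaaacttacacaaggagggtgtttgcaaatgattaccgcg
Bcl2l11 probe (2), chr2:127988051-127988110, plus strand, first 30 bases: aacagcactgatctctgtatagtccccatc
Bcl2 probe (1), chr1:108608970-108609029, minus strand, all 60 bases: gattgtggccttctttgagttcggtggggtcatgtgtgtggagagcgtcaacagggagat
Bcl2 probe (2), chr1:108434793-108434852, minus strand, first 30 bases: catataatggctctttgtttgtgttgttag
Mcl1 probe (1), chr3:95466855-95466914, plus strand, first 30 bases: gctgcttggaaagatggctctcagcaaaat
Mcl1 probe (2), chr3:95465543-95465602, plus strand, first 30 bases: tgcagcttctctagttagaaatgtatttct
Bax, chr7:52721469-52721624, minus strand, all 60 bases: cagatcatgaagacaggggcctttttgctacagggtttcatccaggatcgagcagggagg

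Taken as 9 genes, the family was at a median of 0.00 in control cells and of -0.25 under stress, and its median change in log2 P/FM was -0.63, against -0.67 over all 11936 detected genes. That median hid changes from -2.33 for Bax to 1.33 for Bcl2l2, and it turned to 1.92 with the spike-in scaling. By probes, 10 of 15 were lower and 5 higher under stress, while 66.2% of all probes were lower. Counted as sensitive, which is a change of -0.8 or lower, were 6 of the 15 probes against 44.4% of all probes, and 3 of the 9 genes against 46.1% of all genes. Inducible probes, at or below 0 in control and higher by 1 or more, were 4 of 15 against 12.7%. No family probe was resistant, with 0.8 or more on both arrays, a class that held 3.32% of all probes. A was higher by 1 or more for 2 of 15 probes, against 12.7%.

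By role, of the 8 detected anti-apoptotic probes 4 were higher and 4 lower, of the 3 pore-former probes none was higher and 3 were lower, and of the 4 BH3-only probes 1 was higher and 3 were lower, beside 66.2% of all probes that were lower. Of the lower anti-apoptotic probes 3 are of Bcl2l1, and the other, Bcl2 probe (1), changed by -0.04 ± 0.30. After scaling to the spike-ins all 15 were higher, with the Bax probe lowest at 0.22. That scaling moves every probe by the same amount, so it leaves the order of the members as it was.

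**Figure D1:**
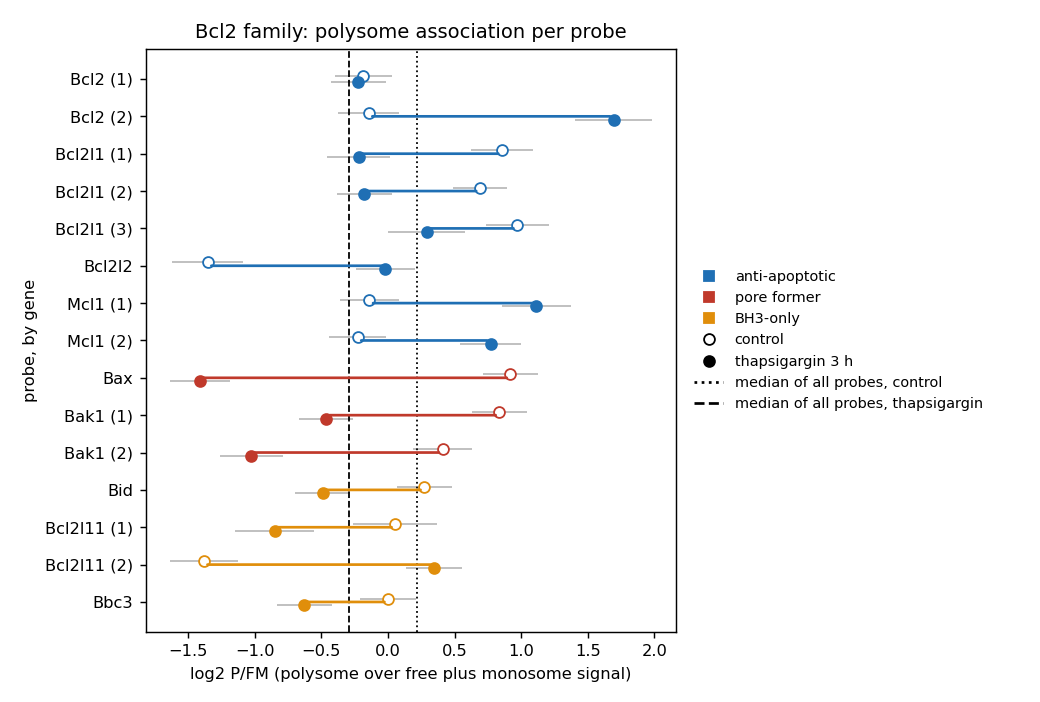
log2 P/FM of each detected family probe in control (open circles) and thapsigargin-treated cells (filled circles), coloured by role, where grey bars are the error of the scanner software and numbers in brackets tell probes of a gene apart. Bax runs from 0.92 down to -1.41 while Mcl1 probe (1) runs from -0.14 up to 1.11, and the dotted and dashed lines give the medians of all probes, 0.22 and -0.29. With the spike-in scaling every member is higher under stress.

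Mcl1, the short-lived anti-apoptotic member, had more polysomal signal under stress with almost the same signal outside polysomes. Probe (1) gave a P signal of 2569 in control and 6153 in stressed cells, and FM signals of 2828 and 2845. This gave a log2 P/FM of -0.14 ± 0.22 in control and 1.11 ± 0.26 under stress, a change of 1.25 ± 0.34. Probe (2) lies upstream of it and gave P signals of 496 and 958 with FM signals of 581 and 561. The ratio was -0.23 ± 0.21 and 0.77 ± 0.23, a change of 1.00 ± 0.31 that missed the inducible threshold narrowly. The probes differed from each other by 0.25 in their change, less than the median range of 0.51 between probes of 1 gene.

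Against other transcripts the Mcl1 changes were at the 89.2 and 85.9 percentiles of all detected probes. Probes with a mean A within 0.5 of that of Mcl1 probe (1) had a median change of -1.60, so the gap to probes as bright as itself was larger than the gap to all probes. Both Mcl1 probes were higher under stress with each of the 12 alternatives of processing that apply to probes, in a range of 0.96 to 3.80. Set against the median of all probes kept under the same alternative, probe (1) lay 0.87 to 2.98 above it and probe (2) 0.64 to 2.01 above it.

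Bcl2l2 encodes Bcl-w, another anti-apoptotic member. Its probe at chr14:55506584-55506643 had a P signal of 41 in control and 85 in stressed cells, and an FM signal of 104 and 86. In log2 P/FM it was at -1.35 ± 0.27, in the lowest 9.51% of probes, and became -0.02 ± 0.22 under stress. The change of 1.33 ± 0.35 counted as inducible and was at the 90.3 percentile. It was higher with every alternative run, by 0.69 to 3.88.

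A probe outside the rule stood against this value. The array holds a probe whose name is the transcript ENSMUST00000111476, an identifier that the Bcl2l2 probe also lists, at chr14:55503755-55503814, upstream of it. This probe gave P signals of 25.6 and 17.7 and FM signals of 102 and 140. On the log2 scale the ratio went from -1.99 ± 0.30 to -2.99 ± 0.37, a change of -0.999 ± 0.47. The upstream and the downstream probe had opposite changes on the unscaled ratios, so the Bcl2l2 value depends on which of them is read.

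Bcl2, the founding member, was read by a detected probe in each of a pair of places 174177 bases apart. Probe (1), listed with NM_177410, had P signals of 108 and 151 and FM signals of 123 and 176. Both fractions were higher by about the same amount, so log2 P/FM was at -0.18 ± 0.21 and -0.22 ± 0.21, a change of -0.04 ± 0.30. That is 0.57 above the median of all probes. Its sign followed the processing, lower in 6 and higher in 6 of the 12 settings in which it was detected.

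Bcl2 probe (2), listed with NM_009741, gave another answer. Its P signal was 61 in control and 174 in stressed cells, and its FM signal was 68 and 54. log2 P/FM was -0.14 (SD 0.18 over 9 spots) in control and 1.69 (SD 0.14) under stress, where it stood at the 98.3 percentile of all probes. The change of 1.84 (SD 0.24) counted as inducible and kept its sign in every setting in which the probe was detected, from 1.31 to 4.39. The remaining Bcl2 probe, at chr1:108607310-108607369 for the cDNA AK077913, was not well above background in either channel.

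Averaged over its probes, Bcl2l1, the gene of Bcl-xL, was lower in both measures on the unscaled ratios, unlike the other anti-apoptotic genes. The probe outside the rule that shares a transcript with Bcl2l2 was also lower in both, with -0.999 in log2 P/FM and -0.03 in A. All 3 Bcl2l1 probes had more P than FM signal in control. At chr2:152606631-152606690, probe (2) had P signals of 1070 and 491 and FM signals of 663 and 555. Polysome association was 0.69 (SD 0.10) in control and -0.18 (SD 0.05) under stress, a change of -0.87 (SD 0.07).

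The other Bcl2l1 probes lie close together in the upstream part of the gene. Probe (1), at chr2:152655730-152655789, had P signals of 134 and 55 and FM signals of 74 and 64, a change of -1.08 ± 0.33 from 0.86 ± 0.24. Probe (3), at chr2:152655185-152655244, had P signals of 123 and 43 and FM signals of 63 and 35, a change of -0.68 ± 0.37 from 0.97 ± 0.24. All 3 probes were lower, 2 of them past the threshold, but probes (1) and (3) turned to 0.05 and 0.29 with the normexp background correction and probe (2) to 0.02 after loess and 0.04 with the processed signals. As a gene Bcl2l1 changed by -0.87, and it was no longer counted as sensitive with normexp (-0.09), the processed signals (-0.42), loess (-0.31), centring (-0.36), no background subtraction (-0.73) or the spike-in scaling (1.68). Relative to the median of all genes kept, the change ranged from -0.61 to 0.14 over the alternatives.

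The signal of Bcl2l1 was lower as well. A was lower by 0.74, 0.69 and 1.18 for probes (1), (2) and (3), while the median of all probes was higher by 0.37. Probe (3) was at the 0.774 percentile of all changes in A, and the others were at the 2.91 and 3.40 percentiles. A of all 3 probes was lower with every alternative that bears on A. Relative to the median of the same 17173 probes, A was also lower with normexp, by values from -1.20 to -0.30. The planned form of normexp kept all 41141 probes, most of them undetected as reported, and against their median the Bcl2l1 probes were 0.05 to 0.94 higher. Bcl2l1 probe (3) was the only one of the 15 with A lower by 1 or more, against 1.29% of all probes. RNA was read from pooled gradient fractions of cleared lysates, not from single cells, and a fraction between the FM and P pools was left out. Fewer transcripts per cell and fewer cells with the transcript can therefore not be told apart. A fixed 300 ng of RNA was labelled per sample, so A is not an amount per cell.

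**Figure D2:**
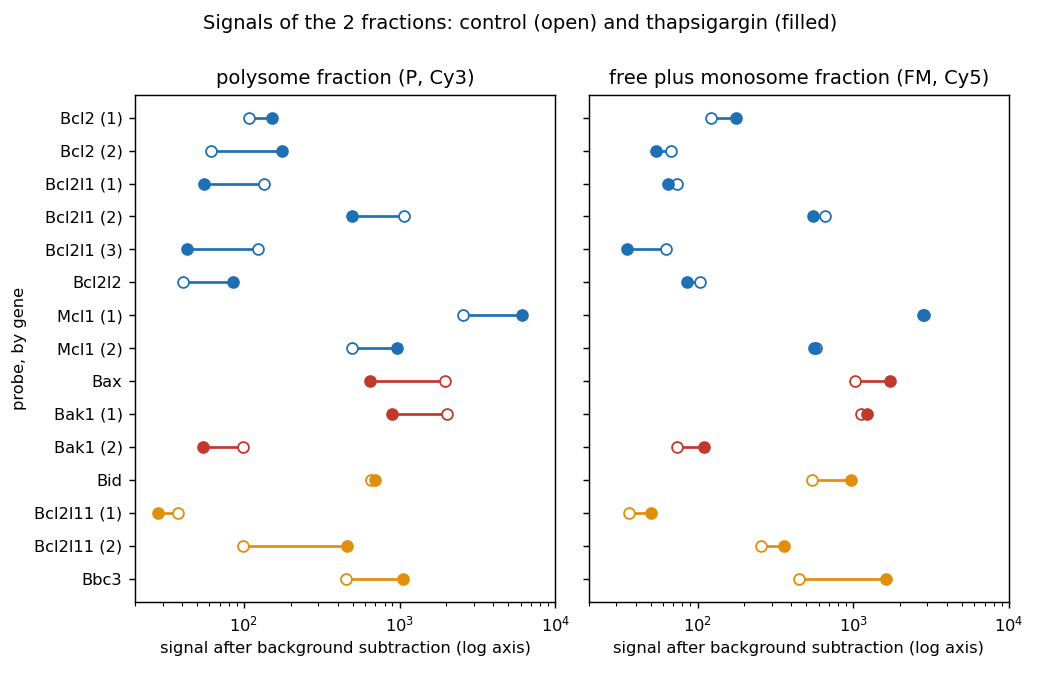
Signals of each detected family probe in the polysome channel (left) and the free plus monosome channel (right) on log axes, in control (open) and stressed cells (filled); only the 2 points of a row can be compared, since probes differ in brightness. Mcl1 probe (1) moves from 2569 to 6153 on the left and stays at 2828 and 2845 on the right, Bcl2l1 is dimmer on both sides, and Bbc3 is brighter on both.

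Bax and Bak1, which build the pore in the outer mitochondrial membrane, had the lowest changes of the 9 genes on the unscaled ratios, which the spike-in scaling turned above 0. The Bax probe had a P signal of 1946 in control and 649 in stressed cells, while its FM signal was 1029 and 1724. The ratio went from 0.92 (SD 0.08 over 9 spots) to -1.41 (SD 0.07) on the log2 scale, a change of -2.33 (SD 0.08) that turned to 0.22 with the spike-in scaling. Only 7.40% of all probes had a change as low or lower, and probes of like A changed by -1.23 in the median. Relative to the median of all probes kept, Bax was lower in all 13 settings, with values from -2.45 to -1.04.

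Bak1 had both its probes on the same side. Probe (1), at chr17:27156967-27157026, had P signals of 2002 and 888 and FM signals of 1122 and 1225. The log2 ratio was 0.84 ± 0.20 and then -0.46 ± 0.21, a change of -1.30 ± 0.29. Probe (2), at chr17:27158232-27158291, had P signals of 98 and 54 and FM signals of 74 and 110, and its change was -1.44 ± 0.33, from 0.41 ± 0.22 to -1.03 ± 0.24. As reported, the probes differed by 0.14 in their change, and the change of the gene, -1.37, turned to 1.18 with the spike-in scaling. The gene was no longer counted as sensitive with normexp (-0.69) or after loess (-0.71). Probes (1) and (2) lay further apart there, at -1.10 and -0.27 with normexp and at -0.19 and -1.23 after loess. With the processed signals they were at -0.26 and -1.34. Probes as bright as Bak1 probe (1) changed by -1.23 in the median, and its own -1.30 was close to theirs. For the dimmer probe (2) that median was -0.15, against its own -1.44.

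A was lower for all 3 pore-former probes, by 0.42 for Bax and by 0.52 and 0.13 for Bak1, against a median of all probes that was higher by 0.37. Bax stood at the 7.73 percentile of changes in A, and Bak1 probe (1) at the 5.58 percentile. A of these probes was lower with every alternative that bears on A, but with normexp they were at -0.64 to 0.03 relative to the median of the same detected probes, and at 0.61 to 1.27 relative to the median of all 41141 probes.

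A of the BH3-only members was higher in 4 of 4 probes, beside 75.5% of all probes, though A of Bid was -0.04 after centring and A of Bcl2l11 probe (1) was lower in 4 of 9 settings. Bbc3 encodes Puma, which binds all anti-apoptotic members. Its probe at chr7:16903403-16903462 had P signals of 451 and 1044 and FM signals of 450 and 1614. Both fractions were brighter, so A was higher by 1.53, at the 97.7 percentile, and by 1.02 to 1.57 across the alternatives. Its ratio was 0.00 ± 0.21 and then -0.63 ± 0.21, a change of -0.63 ± 0.29 that was -0.02 relative to the median of all probes. The sign of that change followed the processing, with 0.17 for the processed signals, 0.27 after loess and 1.92 with the spike-in scaling.

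Bid, the member that links death receptors to mitochondria, was read by 1 probe at chr6:120843464-120843523. Its P signals were 656 and 690 and its FM signals 543 and 969. Its log2 ratio was 0.27 ± 0.21 before and -0.49 ± 0.21 under stress, a change of -0.76 ± 0.29 that turned to 0.12 after loess and 1.79 with the spike-in scaling. It missed the sensitive threshold narrowly and was -0.15 relative to the median change of all probes.

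Bcl2l11, the gene of Bim, was the member with the widest gap between probes. Probe (1), which joins exons, had P signals of 38 and 28 and FM signals of 36 and 50. The ratio was 0.06 ± 0.31 and then -0.85 ± 0.30, a change of -0.90 ± 0.43 that counted as sensitive and turned to 0.15 with normexp and 1.65 with the spike-in scaling. Probe (2), downstream of it, had P signals of 99 and 460 and FM signals of 257 and 362. Its log2 P/FM was -1.38 ± 0.26 and then 0.35 ± 0.21, a change of 1.73 ± 0.33 that counted as inducible.

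A of Bcl2l11 also depended on the probe. Probe (1) had a change in A of 0.02, lower than 0.37 for all probes, and probe (2) one of 1.36, at the 95.8 percentile. With every alternative, the change of probe (2) was higher in log2 P/FM, by 1.19 to 4.28, and in A, by 0.28 to 1.39. A further probe named for the transcript ENSMUST00000089634 and described as Bcl2l11 was not detected. Averaged over its probes the gene changed by 0.41 with an SD of 1.86 between probes, a mean that describes neither probe.

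Pmaip1, the gene of Noxa and a target of Trp53, had 1 probe that was not well above background in either channel of either array. No level or ratio is given for it.

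**Figure D3:**
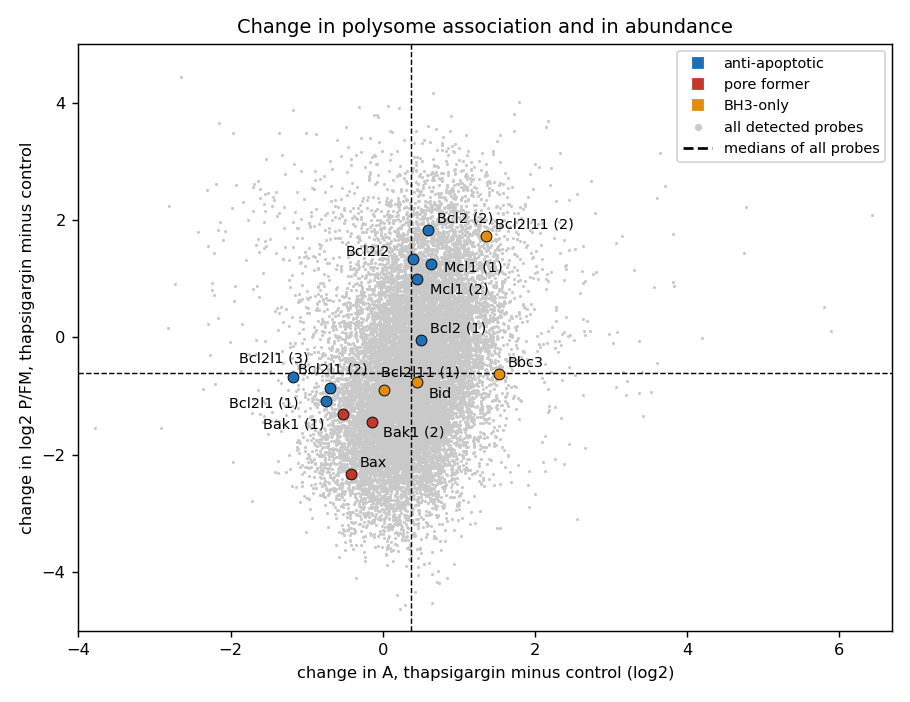
Change in log2 P/FM (vertical axis) against change in A (horizontal axis), stress minus control, for the 17173 detected probes (grey) and the family probes (coloured by role); dashed lines mark the medians of all probes, -0.61 and 0.37. Bcl2l1, Bak1 and Bax are to the left of and below the crossing of those lines, Bbc3 is far to the right at 1.53, and Bcl2l11 probe (2) is at the upper right. A spike-in scaling would move all points up by the same amount, Bax to 0.22.

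Where genes had probes at more than 1 place, the most downstream probe had a higher change than the most upstream one in 5 of 5 family genes, although Bcl2l1 probe (3), between the outer ones, was higher than both. The difference was 1.88 for Bcl2 and 2.63 for Bcl2l11, but 0.21 for Bcl2l1, 0.25 for Mcl1 and 0.14 for Bak1, all below the SD of 0.32 between probes. The pattern was not limited to the family. Over 3432 accessions with 2 or more detected probes, the most downstream probe had the higher change in 65.7%. The median difference was 0.24, and the downstream probe was higher by 1 or more in 20.4%. The Bcl2 probes are listed with different accessions, unlike these pairs. Differences as wide as for Bcl2 were seen in 6.49% of 3562 genes, and as wide as for Bcl2l11 in 1.94%. Only 83 of those genes (2.33%) had 1 probe at -0.8 or lower and another at 0.8 or higher, as Bcl2l11 had.

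Base composition moved with the change too, for the family and for all probes. With a limit of 50% set with the values known, all 6 family probes at or above it were lower (all were higher with the spike-in scaling), with a median change of -0.99, and of the 9 below it 5 were higher. Over all probes, 14.4% of those at 50% or more and 38.9% of those below were higher, with medians of -1.18 and -0.41. The Bcl2 probes were at 53.3% and 35%, while the Bcl2l11 probes were at 48.3% and 45%, so the latter pair differed little in composition. The part of G+C content and of probe position in these changes was not tested.

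**Figure D4:**
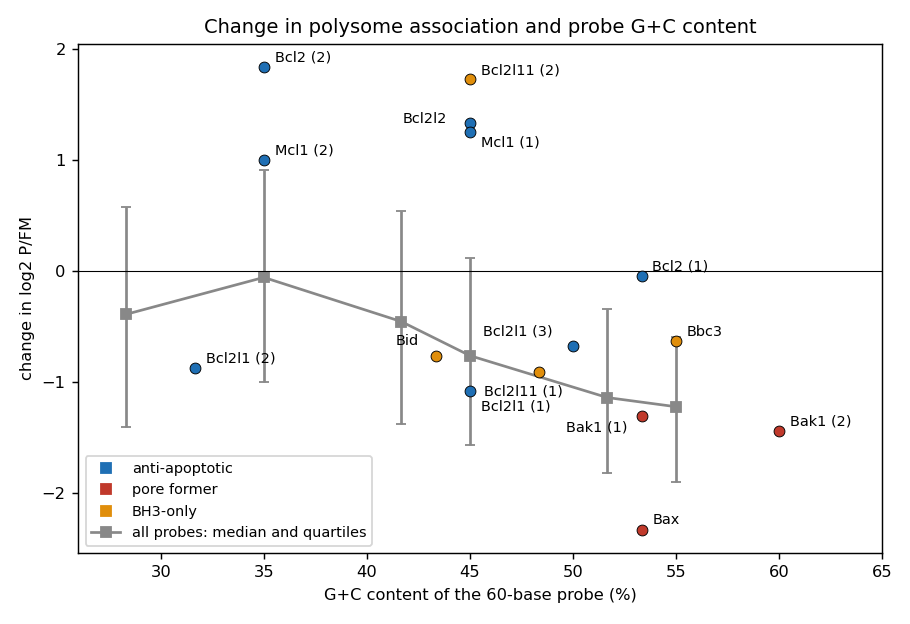
Change in log2 P/FM against the G+C content of the probe, for the family probes (coloured by role) and, in grey, the median and quartiles of all probes in 6 classes of G+C content, drawn at the median content of the class. The 5 family probes that were higher are all at 45% or less, and the Bax and Bak1 probes are all above 50%; with the spike-in scaling every point is shifted up and all family points are above 0.

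The family was also set beside the genes it works with. Of 16 other genes related to Bcl2, 2 had no probe, 6 were not detected and 8 were detected, with a median change of -0.89 that turned to 1.66 with the spike-in scaling. Of the 8, 6 were counted as sensitive, against 46.1% of all genes. The mitophagy receptors Bnip3 and Bnip3l changed by -1.53 and -1.32, and Bcl2l13 by -1.45, and these turned to values from 1.02 to 1.23 with the spike-in scaling. Bmf, another BH3-only gene, had A higher by 1.32 for its detected probe (-1.49 with normexp, where its 2 undetected probes enter the mean) and a change in log2 P/FM of 0.05.

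Other genes of the apoptotic pathway are the next set. All 19 genes of the list of cytochrome c partners, caspases, inhibitor of apoptosis genes and the voltage-dependent anion channels were detected. Their median change was -1.25, which turned to 1.30 with the spike-in scaling. Of these, 14 were sensitive (46.1% of all genes), 2 inducible (Apaf1 and Xiap, against 11.2% of all genes) and 1 resistant (Aifm1, against 2.92%). The last 3 were named after their values were seen. The Apaf1 probe was not well above background in every channel. Its A was 4.94 in control and 4.98 under stress, near the limit of 4.5, and its change was 1.03. Diablo (Smac), Endog and Casp6, proteins released by or acting after permeabilisation, changed by -2.36, -2.29 and -2.12, beside -2.33 for Bax, and turned to 0.19, 0.26 and 0.43 with the spike-in scaling. Vdac2, the channel known to hold Bak1, changed by -1.46 (1.09 with the spike-in scaling). The inhibitor of apoptosis genes Birc3 and Birc2 had A higher by 2.98 and 1.67 (Birc2 -0.59 with normexp). Their changes in log2 P/FM were 0.06 and 0.63.

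Signals known to act on the family were detected for 18 of 20 genes, with a median change of 0.34 that turned to -0.17 for A above 7 and to -0.09 without a filter on A. A was higher for all 18, beside 74.5% of all genes, and by 1 or more for 8 of them, beside 11.4%, but its median of 0.79 turned to -0.39 with normexp over the same 18 genes. Atf4 changed by 3.42 in log2 P/FM, from -1.60 to 1.83, and Ddit3 by 2.58 with A higher by 3.71. Trib3 and Chac1, targets of that pathway, had A higher by 3.48 and 3.16 with changes in log2 P/FM of -0.25 and -0.59, whose signs followed the processing (higher in 6 and 3 of 13 settings, up to 2.30 and 1.96 with the spike-in scaling). Itpr1, the calcium channel of the endoplasmic reticulum to which Bcl2 binds, changed by 2.80. The changes of Mcl1, Bcl2l2, Bcl2 probe (2) and Bcl2l11 probe (2), 1.00 to 1.84, were thus below those of Atf4 and Ddit3, and no family probe had a change in A as large as Ddit3, Trib3 or Chac1.

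**Figure D5:**
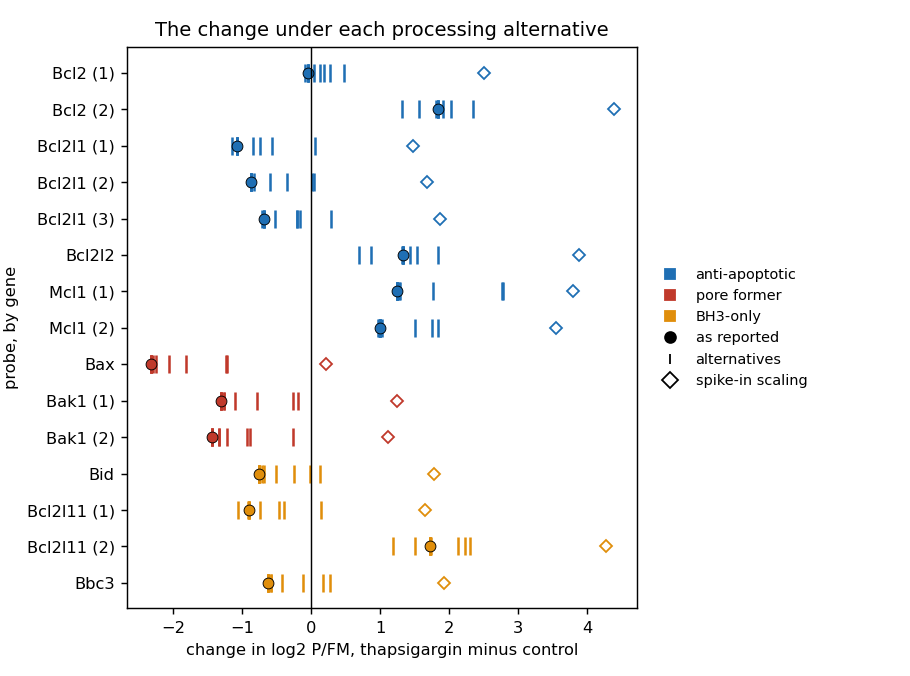
Change in log2 P/FM of each detected family probe as reported (filled circles), under the other processing alternatives in which it was detected (ticks) and after scaling to the spike-in RNAs (open diamonds). The Mcl1 probes, Bcl2 probe (2), Bcl2l2 and Bcl2l11 probe (2) stay to the right of 0 throughout, Bax and Bak1 stay to the left except for the diamonds at 0.22, 1.25 and 1.11, and the others cross 0.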

How the data were processed

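Both conditions were hybridised to 2-colour arrays, 1 per condition, on 1 slide in 1 scan with 1 dye orientation. Per the file headers, the deposited spot and background intensity values came from Agilent Feature Extraction (version 10.7.1 in the submitters' processing notes) without normalization, beside a dye-normalized log10 ratio whose error was used here. The authors' table of log2 ratios equalled the unfiltered mean per accession computed here, within 0.001, for 99.99% of control values.

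Here each mean spot signal was reduced by its median local background, results below 0.5 were set to 0.5, and log2 P/FM and A were taken without normalization. Outlier spots on either array (0.680%, 3 of them of the family) were dropped, spots averaged per probe (as log2 values) and detected probes per gene. None of the family probes was saturated. Python 3.11.15, pandas 2.3.3 and limma 3.58.1 were used, and the steps were tested on simulated data. Probes were named from the files, and all 10 symbols were current in RefSeq.

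The members and lists were chosen with earlier results of these data known. From each list of related genes, the 3 largest changes of log2 P/FM and the 3 largest of A among genes with a probe well above background were named. With 1 array per group no test was made, and precision is limited by the 2 arrays. Alternatives were other background corrections, spot statistics, filters and scalings, and 2 added after seeing the data that hold the detected probes fixed.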

Additional observations from a re-analysis of the deposited data

How the results depend on the processing

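Of 239 values for single genes under the alternatives, 154 moved by less than the spread between probes and 85 by more. In all, 16 changed sign, 8 of them in log2 P/FM. Of genes past a threshold, Bcl2l1 (1.68), Bax (0.22) and Bak1 (1.18) changed sign in log2 P/FM with the spike-in scaling, which adds one offset to every probe. The median change of the family, -0.63, was 0.16 with normexp, 0.17 with the processed signals, 0.27 after loess, -0.12 after centring and 1.92 with the spike-in scaling. Its median change in A, 0.46, was -0.79 with normexp, 0.23 without background subtraction, 0.0096 with the processed signals, -0.0389 after centring and 0.23 without a filter on A. Normexp and no subtraction lift every probe above the limit on A, so undetected Pmaip1 and the undetected Bcl2 probe enter there. With the detected probes alone, chosen after seeing the data, normexp gave -0.0852 in log2 P/FM, -0.6365 in A and 1 sensitive gene, and no subtraction gave -0.58, 0.42 and 2. The control median, 0.0012, was -0.33 after loess and 0.40 with the spike-in scaling, and the stress median, -0.25, was 0.0602, 0.0373 and 2.70 after loess, centring and the spike-in scaling. The number of sensitive genes, 3, was 1 with normexp, 1 after loess and 0 with the spike-in scaling, and by probes it was 6. Centring and spike-in scaling shift all values by construction, and for the others the cause was not tested. No paired analysis was possible because each condition had 1 array. Dim probes, such as those of Bcl2l11 probe (1) and Bcl2l2, are limited by signal over background, and dye effects cannot be told apart from the fractions without a dye swap.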
